A study of Mus musculus with 6 samples.

Results

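The miR-17-92 and miR-106b-25 clusters are a pair of related groups of miRNA genes, each transcribed as a single precursor from which several mature miRNAs are cut. Their guide strands, the arms that are mainly loaded into the silencing complex, were chosen by name from the 1247 mouse miRNAs on the array. There were 9 of them, 6 from miR-17-92 (miR-17-5p, miR-18a-5p, miR-19a-3p, miR-20a-5p, miR-19b-3p and miR-92a-3p) and 3 from miR-106b-25 (miR-106b-5p, miR-93-5p and miR-25-3p). RNA of 6 liver tissues of male C57BL/6 mice was measured, each on its own 1-color array, with 3 tissues in each group. Carbon tetrachloride, which injures hepatocytes and is used to induce fibrosis, was given to the CCl4 group at a dose of 0.6 mL/kg, and the controls received its vehicle, corn oil, alone. The mice were 7 weeks old at the start, and treatment lasted 10 weeks with 2 intraperitoneal injections in each week.

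miRNAs silence mRNAs that pair with their seed, bases 2 to 8 of the mature strand, so miRNAs with the same seed share many targets. Transcription of both clusters is raised by growth-promoting factors such as Myc, and miR-106b-25 lies in a gene of the DNA replication machinery, Mcm7. The miR-17 seed group is known to repress inhibitors of the cell cycle such as Cdkn1a. In liver both clusters have been studied mostly in regeneration, cancer and the activation of hepatic stellate cells.

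The 9 mature sequences, taken from RefSeq (GRCm38.p6), are shown because the comparison by seed rests on them, with the seed in capitals.
mmu-miR-17-5p: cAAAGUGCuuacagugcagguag
mmu-miR-20a-5p: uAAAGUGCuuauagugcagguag
mmu-miR-106b-5p: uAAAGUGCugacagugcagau
mmu-miR-93-5p: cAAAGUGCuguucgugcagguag
mmu-miR-18a-5p: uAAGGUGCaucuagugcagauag
mmu-miR-19a-3p: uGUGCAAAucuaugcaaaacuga
mmu-miR-19b-3p: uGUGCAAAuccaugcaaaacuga
mmu-miR-92a-3p: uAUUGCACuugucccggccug
mmu-miR-25-3p: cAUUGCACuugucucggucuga

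They fell into 4 seed groups. The seed AAAGUGC was shared by 4 members from both clusters, and AUUGCAC by miR-92a-3p of miR-17-92 and miR-25-3p of miR-106b-25. The seed GUGCAAA belonged to miR-19a-3p and miR-19b-3p, and AAGGUGC to miR-18a-5p alone among the members. Without gaps and counted from the 5′ end, miR-19a-3p and miR-19b-3p differed at a single base (U11C, the base of miR-19a-3p first), and miR-17-5p and miR-20a-5p at 2 bases (C1U and C12U). With so few differences, probes for such pairs may also bind the related miRNA, which was not tested.

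In GRCm38.p6 the 6 hairpins of miR-17-92 lie on the plus strand at chr14:115043671-115044506, within 836 bases. The 3 hairpins of miR-106b-25 lie on the minus strand at chr5:138165321-138165818, within 498 bases and inside the span of Mcm7, which encodes a subunit of the replicative helicase. The mature sequences of miR-19b-3p and miR-92a-3p are each encoded at 2 loci, in miR-17-92 and in the related miR-106a-363 cluster (chrX:52741693-52742567, minus strand), so their signals cannot be assigned to a single cluster.

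The arrays differed as a whole before any normalization. For each of the 166 miRNAs detected on all 6 arrays, the log2 signal was set against its mean over the corn oil arrays. The median of these differences was 0.55, 0.35 and 2.05 on CCl4 replicates 1, 2 and 3. On the corn oil arrays it was at most 0.10 in size. The median log2 signal itself was 6.01, 5.73 and 7.45 on these CCl4 arrays, and 4.91 to 5.09 on the corn oil arrays. The number of detected miRNAs was 186 to 193 on the corn oil arrays, 245 and 227 on CCl4 replicates 1 and 2 and 334 on CCl4 replicate 3. The third CCl4 array also stood apart in rank correlation, at 0.856 and 0.860 with the other CCl4 arrays, and changes are therefore given with and without it. The signal of miR-122-5p, the defining miRNA of hepatocytes, was 2158 on that array and 13110 or more on the 5 others. The 6 arrays shared 1 slide on which each group filled its own row, so slide position and treatment cannot be told apart.

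Of the 9 members, 7 were detected by the scanner software on all 6 arrays, compared with 13.3% of all miRNAs on the array. The exceptions were both from miR-17-92. miR-17-5p, which names the cluster, was detected on no array, as were 70.7% of all miRNAs, and none of the spots of its 2 probes was well above background. Its brighter probe gave signals between -0.24 and 0.89 in the controls and between 1.77 and 4.95 after CCl4. Before normalization these did not overlap, CCl4 higher, as in 63.3% of the 166 miRNAs detected on all arrays. No spot behind these signals was well above background. miR-17-3p, the opposite arm of the same hairpin, was detected in each CCl4-treated liver, at 7.38, 6.30 and 26.4, and in 1 control, at 4.202. The value of 26.4 sums 2 probes, while the others are of its brighter probe alone, which gave 19.6 on CCl4 replicate 3. The other 8 opposite arms of both clusters were detected on no array.

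miR-18a-5p, the member with the seed AAGGUGC, was detected in all 3 CCl4-treated livers and in none of the controls. Its total signal, the linear fluorescence intensity before normalization, was 16.0, 13.3 and 12.99 in the former, and the software set it to 0.1 in the latter. The first 2 values sum both probes, while 12.99 on CCl4 replicate 3 is of the brighter probe alone. Each probe taken by itself was brightest on CCl4 replicate 3. Of all 1247 miRNAs, 22 or 1.76% showed the same pattern of detection. Its brighter probe stood well above background at 95% to 100% of its spots after CCl4 and at 0% of them in the controls. The probe signal before normalization was 9.27 to 12.99 after CCl4 and 2.27 to 2.59 in the controls. For comparison, the corn oil arrays were set at a floor, the lowest signal of a probe well above background, 3.08 to 3.27. After scaling to the 75th percentile of each array, the CCl4 mean of the probe was 1.56-fold above this floor, and 2.06-fold without CCl4 replicate 3. CCl4 replicate 3 itself did not exceed it, with a scaled log2 signal of -5.80 beside -5.65 for the floor. The dimmer probe of miR-18a-5p reached 15% of spots above background at most, and gave 4.05 to 5.60 in the CCl4 group and 0.65 to 0.81 in the controls.

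**Figure D1:**
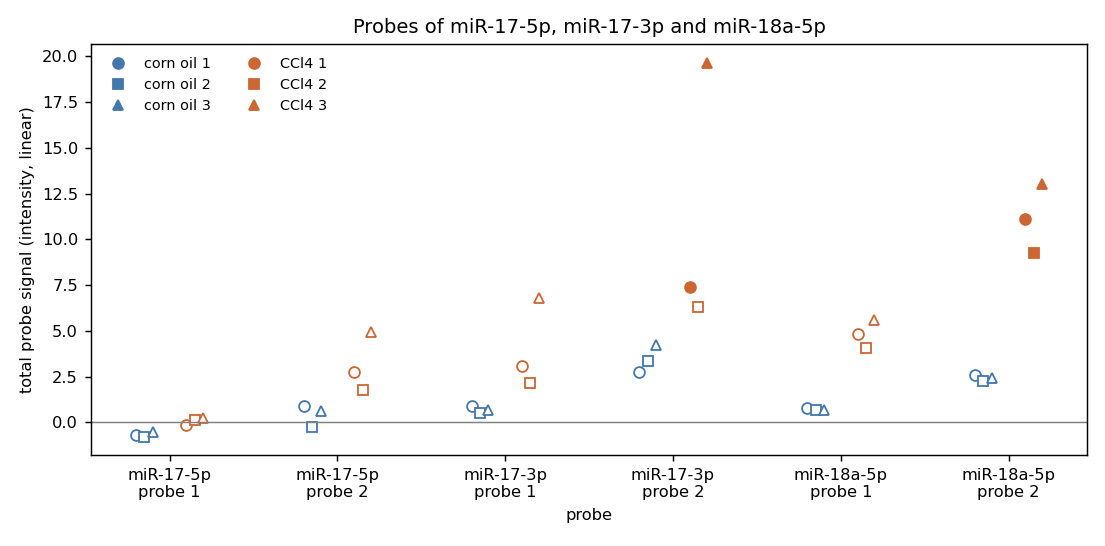
Total signal (linear intensity, not normalized) of the 2 probes of each of the dim miRNAs of miR-17-92 on the 6 arrays, corn oil in blue and CCl4 in orange; filled points have over 50% of their spots well above background. All 3 CCl4 points of the brighter miR-18a-5p probe are filled, at 9.27 to 12.99, while all corn oil points are open.

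The other 4 members of miR-17-92 were detected on all arrays. The total signal of miR-20a-5p, of the miR-17 seed group, was 93.05, 72.9 and 85.7 with corn oil and 160.4, 143 and 233 with CCl4. miR-19a-3p gave 24.4, 20.7 and 21.0 with corn oil and 40.6, 33.9 and 55.3 with CCl4. For both miRNAs every CCl4 array was above every corn oil array before normalization, with CCl4 replicate 3 the highest. miR-19b-3p gave 192, 172 and 195 with corn oil and 257, 238 and 497 with CCl4. miR-92a-3p gave 131, 122 and 141 with corn oil and 175, 161 and 226 with CCl4. These did not overlap either, but the step from corn oil to CCl4 was the smallest of the 7 detected members for miR-92a-3p, 1.41-fold, against 2.09-fold for miR-20a-5p.

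The 3 members of miR-106b-25 were likewise measured on every array. miR-106b-5p gave 47.4, 48.3 and 52.1 with corn oil and 99.4, 75.9 and 194 with CCl4. miR-93-5p, which has the same seed, gave 37.7, 37.0 and 41.8 with corn oil and 73.3, 60.3 and 139 with CCl4. miR-25-3p, the seed mate of miR-92a-3p, gave 45.9, 48.2 and 52.7 with corn oil and 83.0, 65.1 and 248 with CCl4. In each of them the third CCl4 array was the highest of the 6. Before normalization the groups therefore did not overlap for 7 of the 7 detected members, CCl4 higher, but this was also so for 63.3% of the 166 miRNAs. The median unnormalized log2 change of the 7 was 1.07, beside 0.99 for all 166, and without CCl4 replicate 3 these medians were 0.76 and 0.45. Without normalization and without that array all 7 had a limma adjusted p under 0.05, but so did 88 of the 166 miRNAs, and no member reached 2-fold.

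**Figure D2:**
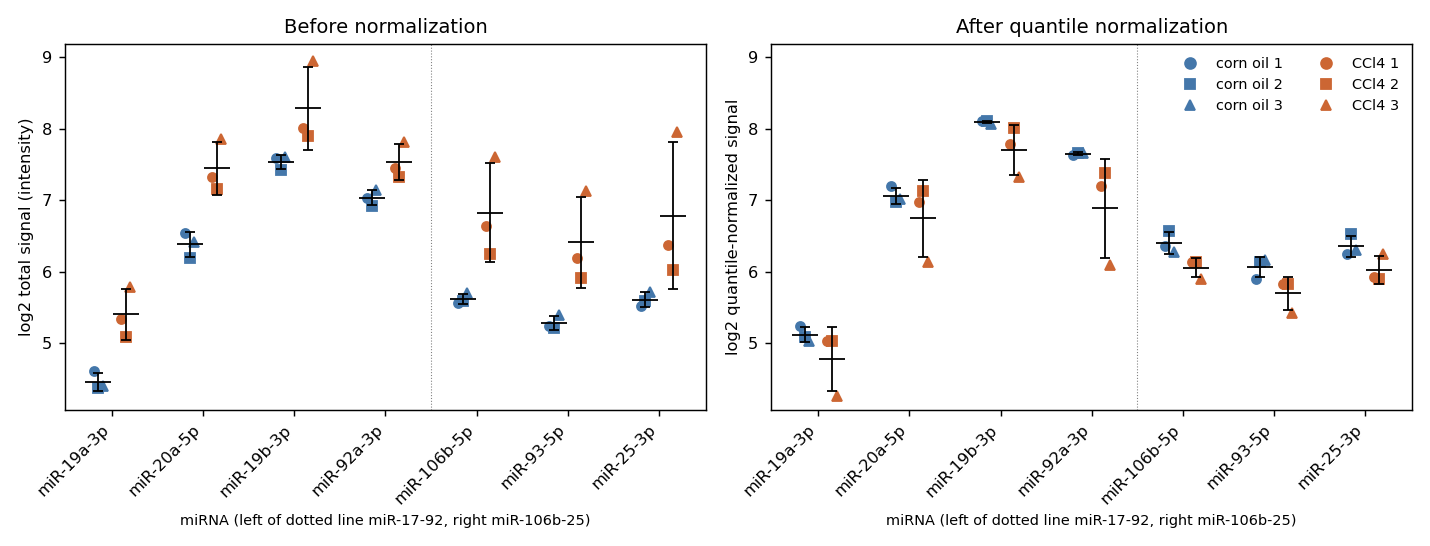
log2 signal of the 7 detected members on each array, before (left) and after (right) quantile normalization; black marks are the mean and SD of 3 arrays. On the left all CCl4 points lie above the corn oil points of the same miRNA, and on the right all CCl4 means lie below the corn oil means.

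After quantile normalization, which gives every array the same distribution and was the method of the study, none of the 7 members was called between CCl4-treated and control livers. A call needed a Benjamini-Hochberg adjusted p under 0.05 over all 166 miRNAs in limma and a fold change over 2, and 12.0% of the 166 were called. No member was called either without CCl4 replicate 3 (16.9% of the 166 called), with 75th percentile scaling (9.64%, and 15.7% without that array) or without normalization (10.8%). All 7 log2 changes, CCl4 over corn oil, were below 0, between -0.76 and -0.32, with a median of -0.34 beside -0.14 for all 166 miRNAs. The group values did not overlap for 4 of the 7, all lower in CCl4, beside 24.7% of all miRNAs. The direction depended on the scaling: with 75th percentile scaling 2 of the 7 changes were above 0 and without normalization all 7.

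miR-92a-3p had the largest change of the 7, -0.76 (95% interval -1.68 to 0.15, limma adjusted p = 0.22). Its normalized log2 signal was 7.65 ± 0.02 (SD, n = 3) in the controls and 6.89 ± 0.70 after CCl4, where replicate 3 at 6.09 was below 7.19 and 7.38 of the others. Without CCl4 replicate 3 the change was -0.37 (-0.56 to -0.18, adjusted p = 0.019), a difference under 2-fold. In that fit 87 of all 166 miRNAs had an adjusted p under 0.05, and 2 of the 7 members, miR-92a-3p and miR-25-3p. miR-25-3p had a change of -0.33 (-0.75 to 0.08, adjusted p = 0.23), and of -0.45 (-0.74 to -0.15, adjusted p = 0.032) without CCl4 replicate 3. With 75th percentile scaling the change of miR-25-3p was 0.02 with all arrays and -0.05 (adjusted p = 0.71) without that array, so its lower value depended on the scaling. The change of miR-92a-3p with that scaling was -0.66 (adjusted p = 0.23), and -0.28 (adjusted p = 0.077) without the third CCl4 array.

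The other 5 members had no limma adjusted p under 0.05 after quantile normalization, with or without CCl4 replicate 3. The change of miR-19b-3p was -0.39 (95% interval -0.91 to 0.13), and its signal was 8.09 ± 0.02 in the controls and 7.71 ± 0.35 in the CCl4 group. The changes of miR-93-5p and miR-106b-5p were -0.37 (-0.81 to 0.07) and -0.34 (-0.72 to 0.04). Those of miR-19a-3p and miR-20a-5p were -0.34 (-0.98 to 0.29) and -0.32 (-1.06 to 0.43). The intervals of these 5 miRNAs hold 0, and none but that of miR-20a-5p reaches a fold change of 2. Without CCl4 replicate 3 all 5 changes were smaller in size. They were -0.21 (-0.44 to 0.02) for miR-19b-3p, -0.24 (-0.52 to 0.03) for miR-93-5p and -0.28 (-0.59 to 0.04) for miR-106b-5p. For miR-20a-5p the change was then 0.00 (-0.25 to 0.25) and for miR-19a-3p -0.09 (-0.30 to 0.13).

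**Figure D3:**
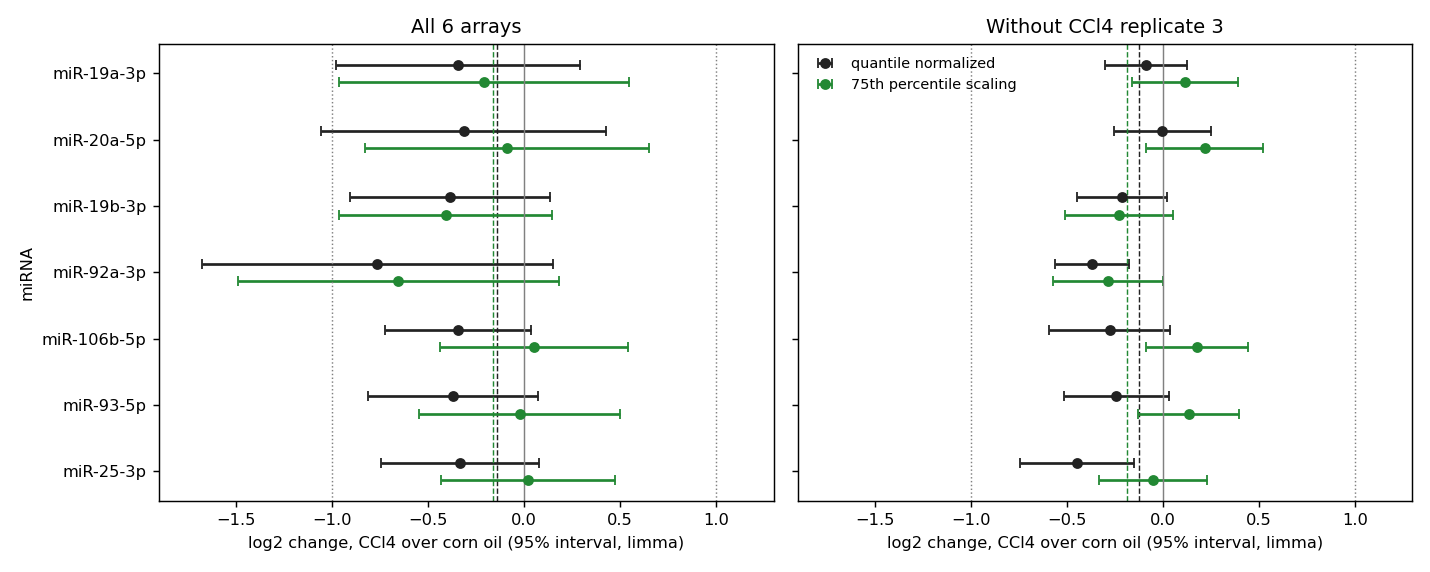
log2 change of the 7 detected members, CCl4 over corn oil, with 95% intervals from limma, with all 6 arrays (left) and without CCl4 replicate 3 (right); black is quantile normalization, green is scaling to the 75th percentile, dashed lines are the medians of all 166 miRNAs and dotted lines mark 2-fold. All black points are below 0, between -0.76 and -0.32 on the left, and the green points are nearer to 0 or above it except for miR-19b-3p.

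The ratio of 2 miRNAs on the same array does not depend on a scaling factor between arrays, and was compared for the 21 pairs of detected members. The group ratios did not overlap for 8 pairs, 38.1%, beside 49.0% of all 13695 pairs among the 166 miRNAs. For any pair the smallest p of a two-sided exact permutation test of 3 arrays against 3 is 0.1, so no ratio could pass 0.05. The median size of the change in log2 ratio was 0.25 for the member pairs and 0.77 for all pairs.

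The pairs that did not overlap included all 6 with miR-92a-3p, which was lower in the CCl4 group against each of the other 6 members. Against all 165 other miRNAs, miR-92a-3p was lower without overlap for 37.6% and higher for 8.5%. The log2 ratio of miR-20a-5p to its cluster mate miR-92a-3p was -0.50, -0.74 and -0.72 with corn oil and -0.13, -0.17 and 0.04 with CCl4. The mean ratio was 0.57 higher in the CCl4 group, and 0.50 higher without CCl4 replicate 3, so this difference did not rest on the third array. The ratio of the seed mates miR-92a-3p and miR-25-3p was 1.52, 1.34 and 1.42 with corn oil and 1.08, 1.303 and -0.14 with CCl4. Here most of the difference of -0.68 came from the third array, and it was -0.23 without it. The ratio of miR-19b-3p to miR-92a-3p was likewise 0.25 higher with that array and 0.06 higher without it.

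**Figure D4:**
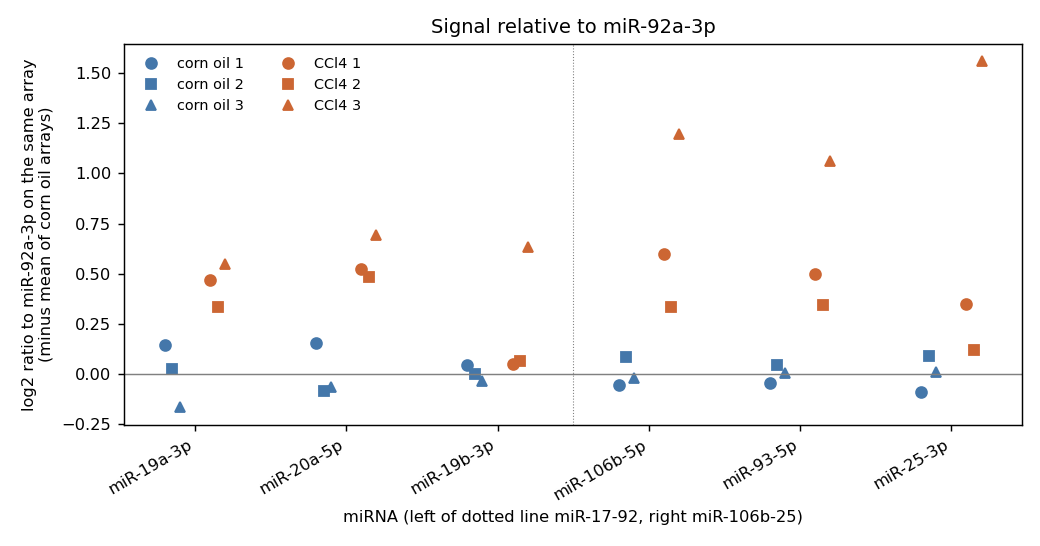
log2 ratio of each detected member to miR-92a-3p on the same array, minus the mean of the 3 corn oil arrays. Every CCl4 point lies above the corn oil points of its miRNA, and CCl4 replicate 3 lies farthest up for all 6, most of all for miR-25-3p.

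Within miR-106b-25 no pair was separated between the groups with all 6 arrays. The log2 ratio of miR-106b-5p to miR-93-5p, seed mates as well as cluster mates, was 0.33, 0.38 and 0.32 with corn oil and 0.44, 0.33 and 0.48 with CCl4, a mean difference of 0.08, and of 0.04 without CCl4 replicate 3. miR-106b-5p to miR-25-3p ranged from -0.02 to 0.05 on the corn oil arrays. On the CCl4 arrays it was 0.26, 0.22 and -0.35, so that the third array lay on the other side of the controls. Without it the ratios of miR-106b-5p and of miR-93-5p to miR-25-3p were higher by 0.23 and 0.19 in the CCl4 group. The median size of the change for all 13695 pairs was then 0.68. Neither ratio overlapped, but the share of all pairs that do not overlap was not counted without that array. Within miR-17-92, the mean ratio of miR-19a-3p to miR-20a-5p differed by -0.12 between overlapping groups. That of the seed mates miR-19a-3p and miR-19b-3p differed by 0.20 with overlapping groups. When CCl4 replicate 3 was left out it differed by 0.34 without overlap, again with no share over all pairs to set beside it. Between the clusters, miR-19b-3p was lower against miR-106b-5p by -0.46 and against miR-93-5p by -0.38, without overlap in either case. Without CCl4 replicate 3 these differences were -0.41 and -0.36.

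Each miRNA was measured by 2 probes of 20 spots each. For all 7 detected members the unnormalized log2 changes of both probes were above 0, as were 93.4% of the changes of all 166 miRNAs. The changes of the 2 probes of 1 miRNA differed by 0.03 to 0.14. With 75th percentile scaling the probes lay on opposite sides of 0 for miR-25-3p (-0.10 and 0.04) and miR-93-5p (0.08 and -0.04).

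Among the related miRNAs outside both clusters, miR-20b-5p of miR-106a-363 has the miR-17 seed and differs from miR-20a-5p at 2 bases (U1C and U10C, the base of miR-20a-5p first). It is shown for comparison with that sequence above.
mmu-miR-20b-5p: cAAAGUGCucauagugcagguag
Its total signal was 30.9, 24.2 and 29.9 with corn oil and 54.2, 47.2 and 83.5 with CCl4. The log2 ratio of miR-20a-5p to miR-20b-5p lay between 1.48 and 1.60 on all 6 arrays, with a mean difference of -0.02 between the groups, and of 0.01 without CCl4 replicate 3. Whether the probes of miR-20b-5p also bind miR-20a-5p was not tested. After quantile normalization miR-20b-5p had a change of -0.28 (-0.82 to 0.26, limma adjusted p = 0.43), and of -0.09 (-0.40 to 0.22, adjusted p = 0.53) without CCl4 replicate 3. The other 8 miRNAs of miR-106a-363 on the array were detected on no array, nor were the other 6 miRNAs on the array that share a seed with a member, among them miR-32-5p, miR-92b-3p and miR-18b-5p.

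The miRNAs with the profile most like the mean of miR-17-92 over the 6 arrays, by the root mean square difference of centered quantile-normalized log2 signals, were miR-130a-3p, miR-3968 and miR-22-3p, at 0.16, 0.16 and 0.17. The median over the 159 other miRNAs was 0.56. For miR-106b-25 they were miR-16-5p, miR-690 and miR-1906, at 0.089, 0.11 and 0.12, beside a median of 0.50. The profiles of the 2 clusters were apart on CCl4 replicate 3, at -0.80 for miR-17-92 and -0.24 for miR-106b-25 relative to their means over all arrays.

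Marker miRNAs of the cell types present in liver were summed before normalization, so that the sums also hold the shift of the CCl4 arrays. The summed signal of 6 leukocyte miRNAs was 77.7 to 91.0 in the controls and 346 to 475 after CCl4, and that of the 4 mesenchymal miRNAs found on the array was 60.1 to 97.8 and 215 to 920. The 5 hepatocyte miRNAs summed to 18946 to 20847 on the corn oil arrays, to 14955 and 17730 on CCl4 replicates 1 and 2 and to 2750 on CCl4 replicate 3. The 3 red cell miRNAs on the array gave 466 to 754 in the controls and 730, 315 and 2144 after CCl4, and the 2 endothelial miRNAs 563 to 677 and 821 to 3732. Of the leukocyte list, 3 of the 6 were detected on all arrays, and miR-150-5p and miR-155-5p on no corn oil array. After CCl4, miR-150-5p was detected on 3 arrays, at 7.37, 4.99 and 26.2, and miR-155-5p on 1 array, at 5.34. Of the 4 mesenchymal miRNAs 3 were detected on all arrays, and 1 of these, miR-199a-5p, was called, higher in CCl4, beside 12.0% called of all 166 miRNAs. No miRNA of the other lists was called. After quantile normalization the median log2 change was -1.73 for the detected hepatocyte miRNAs, 0.52 for the leukocyte, 1.28 for the mesenchymal, -0.55 for the red cell and 0.13 for the endothelial miRNAs. Without CCl4 replicate 3 these medians were -0.52, 0.97, 1.35, -0.72 and -0.08. In total liver RNA, fewer cells of a type and less miRNA per cell cannot be told apart, and the part of these cells in the values of both clusters was not tested.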

How the data were processed

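Total RNA of liver (100 ng per array) was labeled with Cy3 and hybridized to SurePrint G3 mouse miRNA arrays. The authors extracted the signals with Feature Extraction 11.0.1.1. The deposited scanner values are linear intensities after background subtraction, with no normalization across arrays and with undetected miRNAs at 0.1. A second deposited table holds intensities of 111 miRNAs, quantile normalized by the authors. The columns of corn oil replicates 1, 2 and 3 in that table have the rank order of scanner arrays 2, 3 and 1, which does not affect group means.

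Groups came from the sample titles, which number the liver tissues 1 to 3 in each group; neither the labels nor the methods tie each to its own animal, so p-values measure the spread between these tissues. The members and lists were chosen with earlier results of these data known. As in the methods of the study, miRNAs with the detection flag on all 6 arrays (166 of 1247) were analyzed with limma 3.58.1 (R 4.3.3): log2 signals were quantile normalized, and lmFit and eBayes then compared both treatments without covariates. P-values were adjusted over all 166. The table normalized by the authors holds 111 miRNAs, fewer than this filter kept, and the reason was not tested. The fit was tested on simulated arrays of the same 166 miRNAs and groups: of 20 given a log2 change of 2, it recovered 70.2% over 50 runs. False calls had a median of 1 and a maximum of 4. The simulated noise was independent between miRNAs and held no shift of a whole array. The share recovered therefore does not apply to the smaller changes of the members. Python 3.11.15 was used for tables and plots (pandas 2.3.3, matplotlib 3.10.9) and for exact tests.

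Named were the 9 members, their opposite arms, the miR-106a-363 cluster, miRNAs on the array with the same seed, cell type lists and, per cluster, the 3 miRNAs with the most similar profile. miR-106a-5p, miR-486-5p and miR-145-5p matched no name on the array and have no value. miRNA sequences and loci are from RefSeq tables of GRCm38.p6, in which all 9 members were found. The scanner files name mm9 as their build and no coordinates were taken from them. The number of arrays limits the precision of all values. Alternatives covered normalization, detection filter, signal, background correction, the deposited values, moderation, the replicate number and each array left out.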

Additional observations from a re-analysis of the deposited data

Results flagged for a closer look

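Some signals lay outside the comparison of the 166 miRNAs because the detection filter removed them. miR-18a-5p was detected on the 3 CCl4 arrays alone, with a lowest total signal of 12.99 there, which holds 1 probe only. On the corn oil arrays both of its probes were at background. miR-17-3p was detected on the 3 CCl4 arrays with a lowest total signal of 6.30, and on 1 corn oil array with a signal of 4.202. Over 50% of its spots were well above background on CCl4 replicate 3 alone, and no fold is given. With 3 arrays in each group, neither difference in detection was tested.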

How the results depend on the processing

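None of the 7 detected members was called under any of the alternatives run, of which the deposited values held 5 of the 7. Over all alternatives 123 of their results kept direction and call and 22 changed sign. Without normalization the log2 changes were 0.95 for miR-19a-3p, 1.07 for miR-20a-5p, 0.75 for miR-19b-3p, 0.50 for miR-92a-3p, 1.21 for miR-106b-5p, 1.13 for miR-93-5p, 1.18 for miR-25-3p and 1.09 for miR-20b-5p. Without both normalization and CCl4 replicate 3 they were 0.76, 0.86, 0.41, 0.36, 0.82, 0.78, 0.59 and 0.84 in the same order, and with 75th percentile scaling and without that array 0.12 for miR-19a-3p, 0.22 for miR-20a-5p, 0.18 for miR-106b-5p, 0.14 for miR-93-5p and 0.21 for miR-20b-5p. With 75th percentile scaling of all arrays they were 0.0526 for miR-106b-5p and 0.0204 for miR-25-3p, with the mean spot signal 0.0534 for miR-106b-5p, and with only miRNAs that had over 50% of their spots well above background on all arrays 0.0185 for miR-19a-3p. Why these directions changed was not tested beyond the array shifts given above.

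Of all 166 miRNAs 20 were called. The count was 32 of 215 with detection required throughout 1 group only, 6 of 1247 without a detection filter, 7 of 113 with the filter on spots above background, 4 with normexp background correction, 12 in the deposited values, and 41 without normalization and CCl4 replicate 3. With each array left out in turn it was 5 to 28: 7, 5 and 6 without corn oil replicates 1, 2 and 3, and 5, 21 and 28 without CCl4 replicates 1, 2 and 3. The share of higher among the called miRNAs was 60% with quantile normalization and 100% without normalization, without a detection filter, with normexp and with the replicate block. It was also 100% without corn oil replicate 2, without CCl4 replicate 1, and without both normalization and CCl4 replicate 3.

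Replicate numbers are shared between the groups. Deviations from the group means correlated at -0.18, 0.11 and 0.03 for replicates 1, 2 and 3, and at -0.27 to 0.24 between unequal numbers. These values gave no sign of pairing, but 3 arrays in each group are too few to settle whether the numbers pair the livers. With the replicate block 6 miRNAs were called and none of the members. With detection taken as over 50% of the spots well above background, miR-18a-5p counted as detected on 2 arrays rather than 3. The files used here hold no mean spot signal before processing, so normexp was run on the median spot signal and not on the mean. This correction and the settings with both a scaling and an array changed were chosen after seeing the data.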
